A study of Mus musculus with 12 samples.

Results

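The 10 genes described here are members of the transcription network that holds mouse embryonic stem (ES) cells in a pluripotent state, followed here in differentiating gastruloids. They are *Pou5f1*, *Nanog*, *Esrrb*, *Zfp42*, *Tfcp2l1*, *Klf2*, *Klf4*, *Tbx3*, *Prdm14* and *Dppa5a*, taken by name out of 38911 gene symbols in the count files. The choice was made with earlier results of these data known. All 10 passed the filter on low counts, which kept 16966 genes. Polyadenylated RNA was sequenced from gastruloids, which are aggregates of ES cells that form the germ layers and elongate in culture. There were 12 libraries, 3 in each of 4 groups. All were grown from the ES cell line E14TG2a, kept in 2i and LIF, at 200 cells per aggregate, given the Wnt agonist CHIR99021 on day 2 as the protocol requires, and harvested on day 4 after a treatment that began on day 3.

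The 1X glucose group was in medium with 21.25 mM glucose and is the control. The 0X glucose group had no glucose, and the 3X glucose group had 63.75 mM. The 2-DG group had 5 mM 2-deoxy-D-glucose, a glucose analogue that cells take up and phosphorylate but cannot metabolise further along glycolysis, added to 1X glucose. Each group held 1 library from ES cells at each of passages 13, 15 and 16, so that the passage pairs the libraries of different groups. A library pooled gastruloids collected from 1 plate, all of 1 cell line, so it gives an average over many aggregates and all their cell types. In such bulk RNA, fewer cells that express a gene and less RNA per cell cannot be told apart. The libraries held 31902471 to 45956080 counts each, and the 1X glucose libraries (38439471 to 45956080) were deeper than all others but 1 of 3X glucose. Levels are therefore given as CPM, a count scaled to a common library size, after TMM normalization. The streak and tail bud gene *T* (64.6 to 330.2 CPM), the paraxial mesoderm gene *Tbx6* (92.8 to 265.9 CPM) and the neural progenitor gene *Sox2* (35.6 to 156.4 CPM) were present in every library.

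OCT4, the product of *Pou5f1*, pairs with SOX2 on composite DNA elements and, with NANOG, forms the core of the network in ES cells and in the epiblast. A second tier, made of ESRRB, TFCP2L1, KLF2, KLF4, TBX3 and PRDM14, marks the naive state that 2i and LIF sustain, and is shut down when cells leave it. *Zfp42* (also named *Rex1*) and *Dppa5a* (also named *Esg1*) are commonly read as markers of undifferentiated cells. In the embryo, *Pou5f1* stays on in the epiblast through gastrulation, whereas most of the second tier falls earlier, and *Prdm14* returns in primordial germ cells. Several of these genes also have roles outside the network, such as *Klf2* in endothelium, *Klf4* in epithelia and *Tbx3* in mesoderm and endoderm derivatives.

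DNA upstream of the members is shown first, because *Pou5f1*, *Nanog*, *Tfcp2l1* and *Zfp42* recur in the results below and the first of them encodes a factor that reads such DNA. The RefSeq promoter table (GRCm38.p6) held 10 windows for 7 of the 10 members, and none for *Tbx3*, *Prdm14* and *Dppa5a*. The 250 bases before each start site were searched on both strands for 5 sequences: the octamer ATGCAAAT read by OCT4, the Sox-Oct composite made of CATTGT, any 1 base and ATGCAAA, the Klf-type GGGCGTGG, the ESRRB-type TCAAGGTCA and the STAT-type TTCCNGGAA. The composite shares 7 bases with the octamer. Among all 32851 windows of the table, the octamer was in 1.60%, the composite in 0.00609% (2 windows, both of *Nanog*), the Klf-type sequence in 4.79%, the ESRRB-type in 0.387% and the STAT-type in 0.913%. The member windows with a match are printed on the strand of the gene, 5′ to 3′, with the matched bases in capitals. The *Nanog* window is chr6:122707239-122707488 (plus strand) and carries the composite in the reverse direction and a Klf-type match. The window of *Zfp42*, chr8:43307010-43307259 (minus strand), holds the octamer in the reverse direction. For *Tfcp2l1*, chr1:118627695-118627944 (plus strand) has a pair of Klf-type matches, both in the reverse direction.
Nanog: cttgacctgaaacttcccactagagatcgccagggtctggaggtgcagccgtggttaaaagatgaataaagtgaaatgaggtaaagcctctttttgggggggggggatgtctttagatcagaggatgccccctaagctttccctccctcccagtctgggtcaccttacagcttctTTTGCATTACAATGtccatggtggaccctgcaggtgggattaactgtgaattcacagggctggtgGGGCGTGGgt
Zfp42: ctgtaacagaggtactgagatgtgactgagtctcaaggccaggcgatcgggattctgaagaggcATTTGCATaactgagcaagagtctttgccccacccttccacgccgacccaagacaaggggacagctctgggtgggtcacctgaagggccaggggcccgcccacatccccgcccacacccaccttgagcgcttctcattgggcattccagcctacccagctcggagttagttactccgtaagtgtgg
Tfcp2l1: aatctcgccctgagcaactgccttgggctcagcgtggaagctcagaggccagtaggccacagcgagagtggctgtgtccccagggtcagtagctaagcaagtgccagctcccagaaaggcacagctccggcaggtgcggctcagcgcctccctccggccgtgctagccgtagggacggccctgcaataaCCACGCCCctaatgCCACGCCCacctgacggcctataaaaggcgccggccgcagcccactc
The other *Nanog* window overlaps the one shown and holds the same matches. No match was found in the 6 windows of *Pou5f1*, *Esrrb*, *Klf2* and *Klf4*, which says only that these letters are not in those 250 bases. The genes lie, in the same build, at chr17:35506032-35510777 (*Pou5f1*, plus strand), chr6:122707489-122714633 (*Nanog*, plus), chr12:86361117-86521628 (*Esrrb*, plus), chr8:43295067-43307009 (*Zfp42*, minus) and chr1:118627923-118685168 (*Tfcp2l1*, plus). The others are at chr8:72319062-72321654 (*Klf2*, plus), chr4:55527137-55532475 (*Klf4*, minus), chr5:119670534-119684724 (*Tbx3*, plus), chr1:13113428-13127163 (*Prdm14*, minus) and chr9:78367052-78368199 (*Dppa5a*, minus). A match describes the sequence and does not show that a factor binds there in gastruloids.

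The members were expressed at very different levels. Per kilobase of the longest GENCODE M21 transcript matched to the gene, *Pou5f1* was highest in 1X glucose, at 24.5 ± 6.23 CPM per kb (SD, n = 3). *Dppa5a*, whose transcript is the shortest of the 10 (619 bases), followed at 14.2 ± 2.78 CPM per kb. All other members were far lower. *Klf4* (1.31 ± 0.58), *Nanog* (1.31 ± 0.19), *Zfp42* (0.85 ± 0.10), *Klf2* (0.49 ± 0.13), *Esrrb* (0.37 ± 0.08), *Tbx3* (0.36 ± 0.26), *Tfcp2l1* (0.28 ± 0.08) and *Prdm14* (0.14 ± 0.03) came next in that order, in CPM per kb. Much of this order lies within the spread of the 3 libraries. The range of *Klf4* held those of *Nanog* and *Zfp42*, the ranges of *Klf2*, *Esrrb*, *Tbx3* and *Tfcp2l1* all overlapped with each other, and that of *Tbx3* also held *Prdm14*. The counts of *Pou5f1* (1836, 907 and 1654 in 1X glucose at passages 13, 15 and 16) leave little counting error, whereas those of *Prdm14* (20, 12 and 16) leave much.

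**Figure D1:**
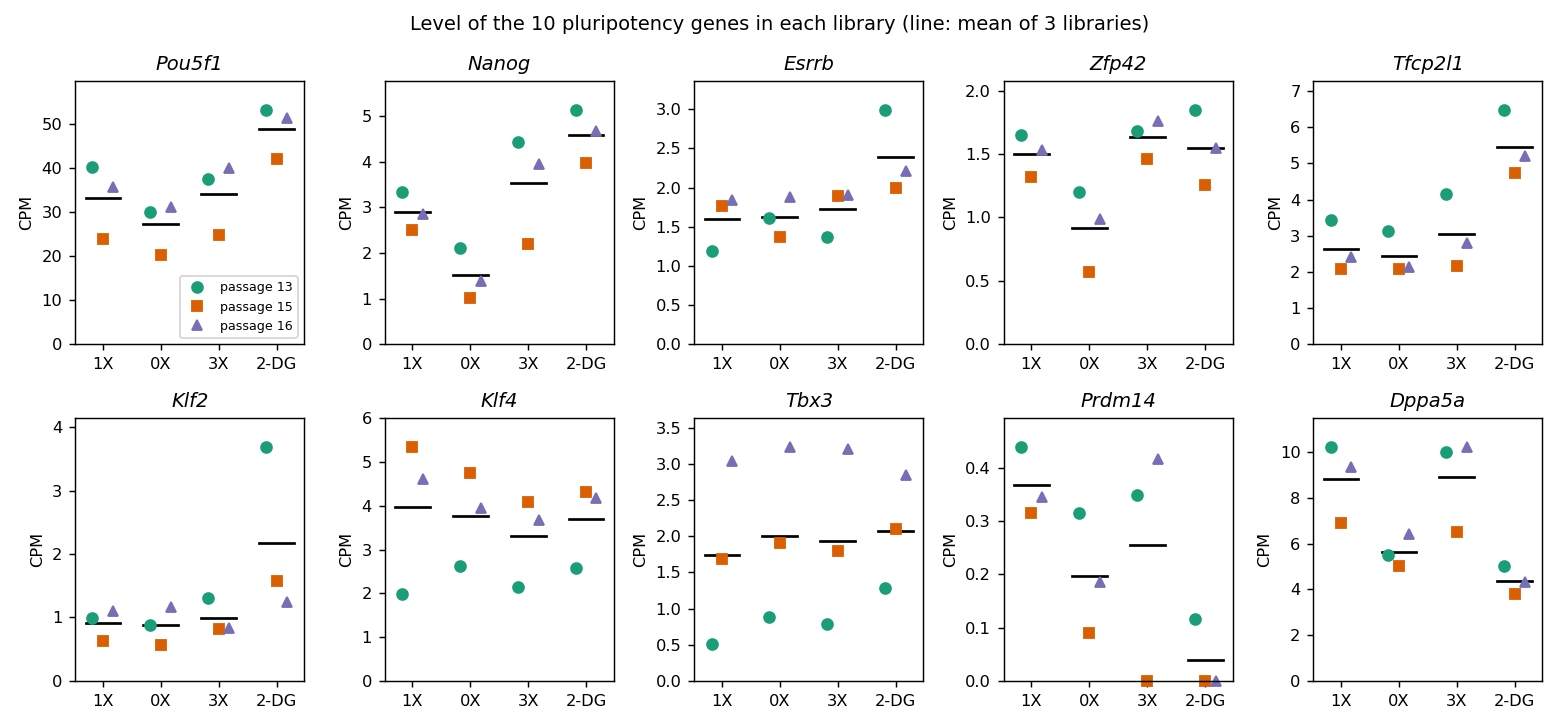
Level of each of the 10 genes (y axis, CPM after TMM, from 0) in every library, by treatment (x axis), with passages 13, 15 and 16 as circles, squares and triangles and the mean of 3 libraries as a line. *Tfcp2l1* in 2-DG lies above all other libraries, from 4.74 CPM up, as do *Pou5f1* and *Esrrb*. *Klf4* and *Tbx3* at passage 13 lie below the other passages in every treatment.

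The first question was what 5 mM 2-DG did to the network. Of the 10 members, 1 rose and 1 fell by edgeR's quasi-likelihood test at an adjusted p under 0.05, against 17.6% of all 16966 genes called (9.12% higher and 8.51% lower). Counted by libraries that do not overlap, 5 members (*Pou5f1*, *Nanog*, *Esrrb*, *Tfcp2l1* and *Klf2*) were higher in every 2-DG library than in any 1X library, where 18.3% of all genes were, and 2 (*Prdm14* and *Dppa5a*) were lower in every one, where 17.2% of all genes were. The median log2 fold change of the 10 was 0.40, and that of all genes was 0.0023. When the passage entered the model as a block, 7 members were called, 5 higher and 2 lower, and the share of all genes called was then 41.3% (21.1% higher and 20.2% lower). Their 7 of 10 stand beside 41.3% in the blocked fit, and their 2 of 10 beside 17.6% in the fit without it. With 3 libraries against 3, an exact two-sided permutation test cannot go below 0.1, so no such test was used.

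Among the core factors, *Pou5f1* measured 40.3, 23.9 and 35.7 CPM in 1X glucose at passages 13, 15 and 16, and 53.1, 42.1 and 51.3 CPM in 2-DG. The lowest 2-DG library was above the highest control. The log2 fold change was 0.55 ± 0.23 (SE), with an adjusted p of 0.133 in the edgeR fit of the 4 groups. In the fit with the passage as a block it was 0.58 ± 0.08, and the gene was then called (adjusted p = 0.000232, edgeR). *Pou5f1* held 678 to 1925 counts per library.

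*Nanog*, the homeobox factor of the core, measured 3.34, 2.50 and 2.85 CPM in 1X glucose and 5.12, 3.98 and 4.66 CPM in 2-DG, in the same order of passages. The groups did not overlap, and the within-passage differences were close in size, at 0.61, 0.66 and 0.70 on the log2 scale. Its log2 fold change was 0.66 ± 0.29 (adjusted p = 0.142, edgeR), and with the block it was 0.67 ± 0.15 and was called (adjusted p = 0.00474).

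*Tfcp2l1*, a naive factor downstream of LIF and STAT3 signalling, was the 1 member that rose in 2-DG without the block. Its 1X glucose libraries measured 3.43, 2.08 and 2.42 CPM, and its 2-DG libraries 6.47, 4.74 and 5.19 CPM. Every 2-DG library was above every library of the other 3 groups, the next highest being 4.15 CPM at passage 13 in 3X glucose. The same held for *Pou5f1* (at least 42.1 CPM in 2-DG and at most 40.3 CPM elsewhere) and *Esrrb* (1.99 and 1.91 CPM). The share of all genes with this pattern was not counted. The log2 fold change of *Tfcp2l1* was 1.05 ± 0.27 (adjusted p = 0.0244, edgeR). Without the block, leaving out 1 library at a time kept the direction in all 6 fits but the call in 2 of 6. The call was lost without the passage 13 library of 2-DG (adjusted p = 0.0790), the passage 15 or 16 library of 1X glucose (0.0920 and 0.0767) or the passage 16 library of 2-DG (0.0513). It was also lost when the most abundant transcript of each gene was taken alone (0.84, adjusted p = 0.306). With the passage as a block the adjusted p was 3.73e-05.

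*Klf2*, a zinc finger factor that 2i sustains in ES cells, measured 0.988, 0.631 and 1.10 CPM in 1X glucose and 3.69, 1.58 and 1.25 CPM in 2-DG. The passage 13 library of 2-DG was far above the other 2, and the passage 16 library was barely above its own control. The within-passage differences were 1.84, 1.25 and 0.18 on the log2 scale. The fitted log2 fold change was 1.25 ± 0.42 (adjusted p = 0.0656, edgeR), and with the block it was 1.19 ± 0.31 and was called (adjusted p = 0.0105). It was also called by DESeq2 (adjusted p = 0.0381) and, in edgeR without the block, in 1 of 6 fits that left out a library (1.53 without the passage 16 library of 2-DG, adjusted p = 0.0411). Without the passage 13 library of 2-DG the log2 fold change was 0.63 (adjusted p = 0.267).

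*Esrrb*, an orphan nuclear receptor, measured 1.19, 1.76 and 1.84 CPM in 1X glucose and 2.99, 1.99 and 2.21 CPM in 2-DG. The groups just failed to overlap, and most of the difference was at passage 13, where it was 1.29 on the log2 scale against 0.17 and 0.26 at passages 15 and 16. Its log2 fold change was 0.59 ± 0.23 (adjusted p = 0.110, edgeR), called only with the block (0.60 ± 0.22, adjusted p = 0.0457). From the most abundant transcript alone, which held 77.5% of its counts, the log2 fold change was −0.58. That transcript was at 0 in the passage 13 library of 2-DG, whose 102 counts were all on another transcript.

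*Dppa5a*, which encodes an RNA-binding protein enriched in pluripotent cells, went the other way. It measured 10.2, 6.89 and 9.33 CPM in 1X glucose and 5.01, 3.81 and 4.32 CPM in 2-DG, and the groups did not overlap. The gene fell by 1.01 on the log2 scale (SE 0.21, adjusted p = 0.00836, edgeR), and it was called in all 6 fits that left out 1 library. *Prdm14*, a repressor of differentiation signals that also acts in germ cells, had 4, 0 and 0 counts in the 2-DG libraries against 20, 12 and 16 in 1X glucose. A count of 0 was not particular to 2-DG, since the 3X glucose libraries held 12, 0 and 17. The summed counts, set against library size, were at a ratio of 0.0991 (exact 95% interval 0.0260 to 0.271, which covers counting error only). The edgeR estimate was −3.19 ± 1.13 on the log2 scale (adjusted p = 0.0770), and it was called with the block (−3.27 ± 0.94, adjusted p = 0.0176). A count of 0 allows up to 3 counts, so the size of this estimate depends on how zeros are handled.

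For 3 members the 2-DG and 1X libraries overlapped. *Zfp42* measured 1.65, 1.32 and 1.53 CPM in 1X glucose and 1.84, 1.25 and 1.54 CPM in 2-DG, and its log2 fold change was 0.04, with a 95% interval from −0.50 to 0.59. *Klf4*, a zinc finger factor shared by ES cells and epithelia, had −0.10 (−0.94 to 0.74), and *Tbx3*, a T-box repressor, had 0.25 (−1.22 to 1.72). Both *Klf4* and *Tbx3* differed between passages, as shown further on, and the block narrowed their intervals to −0.34 to 0.24 and −0.05 to 0.87 without a call.

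**Figure D2:**
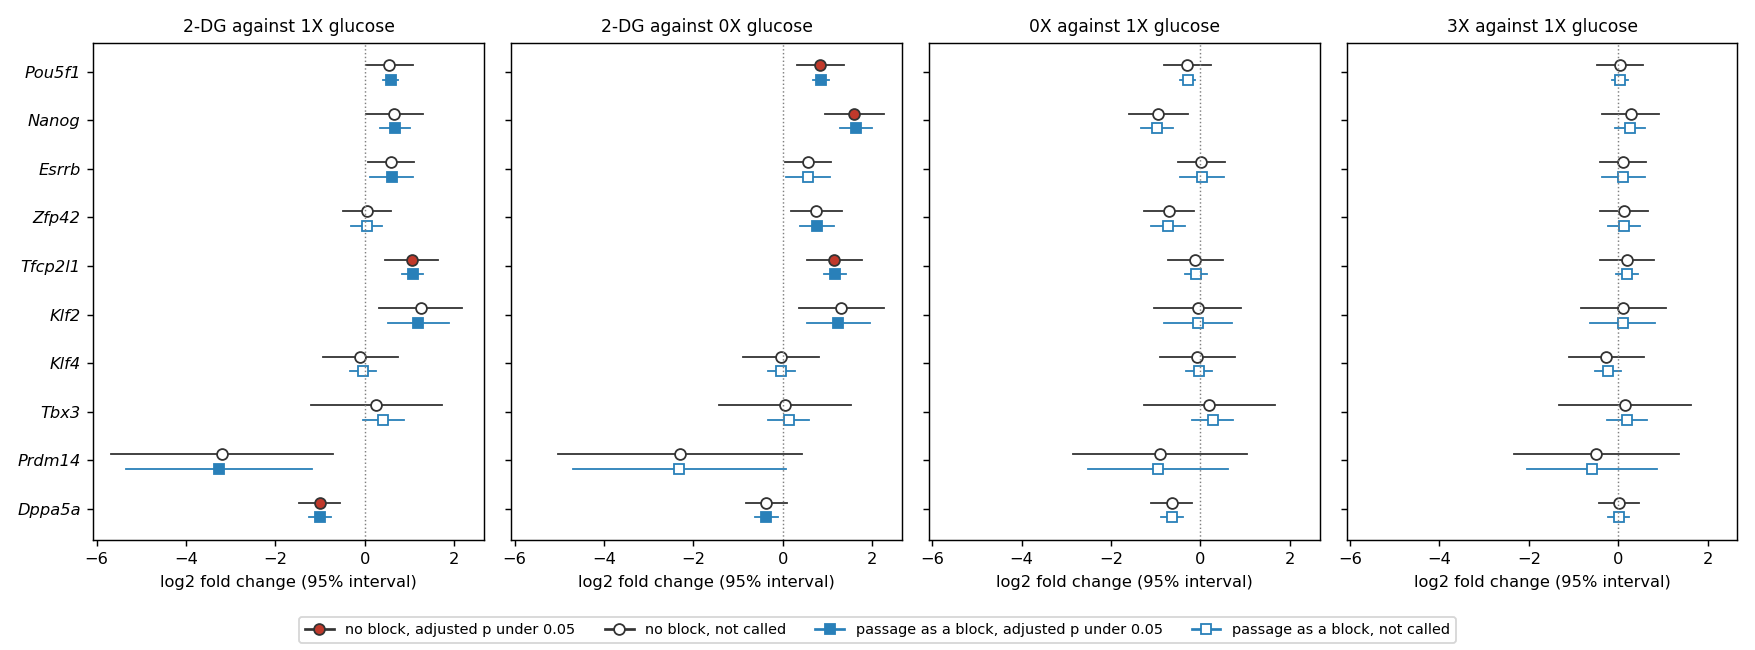
Log2 fold change (x axis) of each gene (y axis) in 4 comparisons of treatments, with its 95% interval, from the edgeR fit without a block (circles) and with the passage as a block (squares), filled where the adjusted p was under 0.05. Without the block, the filled circles are *Tfcp2l1* and *Dppa5a* for 2-DG against 1X glucose and *Pou5f1*, *Nanog* and *Tfcp2l1* for 2-DG against 0X glucose.

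The second question was whether removing or adding glucose moved the same genes. These comparisons use the same 1X glucose libraries as the one above, so they are not independent of it. No member was called in 0X against 1X glucose, where 0.0118% of all genes (2 genes) were called, and none with the block, where 0.0177% were. At an unadjusted p under 0.05, 3 members passed in the edgeR fit, against 1.80% of all genes, and DESeq2 called none of the 10 and 12 of all genes. The 3 were *Nanog*, *Zfp42* and *Dppa5a*. *Nanog* measured 2.11, 1.02 and 1.39 CPM in 0X glucose, all under the lowest control of 2.50 CPM, with a log2 fold change of −0.95 (95% interval −1.61 to −0.28). *Zfp42* measured 1.20, 0.568 and 0.986 CPM, all under the lowest control of 1.32 CPM, with −0.71 (−1.27 to −0.15). *Dppa5a* measured 5.49, 5.02 and 6.41 CPM, all under the lowest control of 6.89 CPM, with −0.64 (−1.10 to −0.19).

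With *Prdm14*, whose 0X libraries held 10, 3 and 6 counts, 4 members lay below every 1X library in 0X glucose and none above. Among all genes, 2.94% lay below and 2.69% above. *Pou5f1* measured 30.1, 20.3 and 31.3 CPM in 0X glucose and overlapped with the controls, though it was lower in each of the 3 passages, and its log2 fold change was −0.29 (−0.81 to 0.23). The remaining 5 members overlapped with the controls, with log2 fold changes from −0.11 for *Tfcp2l1* to 0.20 for *Tbx3*.

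In 3X against 1X glucose the libraries of all 10 members overlapped. No member and no other gene was called (0%), with the block or without it (0%). At an unadjusted p under 0.05, none of the 10 passed and 1.05% of all genes did, and DESeq2 called none of the 10 and 2 of all genes. Libraries that do not overlap were seen for 2.09% of all genes in the higher direction and 2.38% in the lower. *Pou5f1* measured 37.6, 24.8 and 40.0 CPM in 3X glucose, and its log2 fold change was 0.04 with a 95% interval from −0.48 to 0.55. *Nanog* measured 4.44, 2.19 and 3.94 CPM, with 0.28 (−0.35 to 0.92). The interval was widest for *Prdm14* (−2.34 to 1.36) and *Tbx3* (−1.32 to 1.62), and that fit does not exclude changes inside these bounds. With the passage as a block the intervals were −2.05 to 0.87 for *Prdm14* and −0.26 to 0.66 for *Tbx3*.

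Whether 2-DG acted on the network differently from the absence of glucose was tested directly, by a difference that does not use the 1X libraries. They still entered the shared estimate of the spread, since all 12 libraries were fitted together. Of the members, 3 rose and none fell in 2-DG against 0X glucose, beside 18.9% of all genes called (9.86% higher and 9.04% lower). *Nanog* differed most among them, with 3.98 to 5.12 CPM in 2-DG and 1.02 to 2.11 CPM in 0X glucose and a log2 fold change of 1.61 ± 0.30 (adjusted p = 0.00484, edgeR). *Tfcp2l1* rose by 1.16 ± 0.28 (adjusted p = 0.0153), from 2.09 to 3.12 CPM in 0X glucose to 4.74 to 6.47 CPM. *Pou5f1* rose by 0.84 ± 0.24 (adjusted p = 0.0306).

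*Nanog* was called in all 6 fits that left out 1 library, and the other 2 in 3 of 6 each. *Pou5f1* was lost without the passage 13 or 16 library of 2-DG or the passage 15 library of 0X glucose (adjusted p = 0.0886, 0.0813 and 0.103). *Tfcp2l1* was lost without the passage 13 library of 2-DG or the passage 15 or 16 library of 0X glucose (0.0538, 0.0604 and 0.0565). The most abundant transcript alone gave a call for none of the 3 (adjusted p = 0.109 for *Nanog*, 0.100 for *Pou5f1* and 0.0918 for *Tfcp2l1*), and DESeq2 called *Klf2* besides (adjusted p = 0.0311). All counts of *Pou5f1* were on 1 transcript, so its own counts and its log2 fold change (0.84) were unchanged there. Only the counts of other genes differed, and 766 of all genes were called. Among the fits that left out a library, *Nanog* was the 1 member called without the passage 13 library of 2-DG, and also without the passage 15 library of 0X glucose.

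With the block, 6 members were called in 2-DG against 0X glucose, 5 higher and 1 lower, where 43.1% of all genes were (21.5% in each direction). *Zfp42* joined the higher ones, at 0.77 ± 0.17 (adjusted p = 0.00464), and so did *Klf2*, at 1.25 ± 0.32 (adjusted p = 0.00979). *Dppa5a* was the lower one, at −0.37 ± 0.12 (adjusted p = 0.0258). By libraries, 6 members were above every 0X library in 2-DG and 1 was below, beside 19.3% and 18.6% of all genes. For *Zfp42* the difference lay in the 0X libraries, which held 0.568 to 1.20 CPM, since its 2-DG and 1X libraries overlapped.

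Differences between the ES cell passages were as large as those between the treatments for part of the network. The libraries of a passage differ in treatment, and the labels show no repeat of a passage within a treatment. A difference between passages is therefore also a difference between sets of gastruloids, and the effect of passage number itself was not tested. The p-values for passages measure the spread between libraries, not between repeats of a passage. In a fit of passage and treatment together, 46.1% of all genes differed between passage 13 and the mean of passages 15 and 16 (23.3% higher and 22.8% lower). Of the 10 members 7 did, 5 higher at passage 13 and 2 lower. *Tbx3* and *Klf4* were the lower ones, and they were also the members with no call between treatments in either fit, with the block or without it.

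*Tbx3* measured 0.505 to 1.29 CPM in the 4 libraries of passage 13, 1.68 to 2.10 CPM at passage 15 and 2.85 to 3.24 CPM at passage 16. The 3 passages did not overlap although each held all 4 treatments. It fell by 1.51 on the log2 scale (SE 0.17) from the other passages to passage 13 (adjusted p = 5.52e-05, edgeR). *Klf4* measured 1.98 to 2.62 CPM at passage 13, 4.08 to 5.34 CPM at passage 15 and 3.67 to 4.60 CPM at passage 16, and fell by 0.91 (SE 0.10, adjusted p = 6.29e-05). These 2 members lay below all 8 libraries of the other passages, as did 7.80% of all genes, and no member lay above all 8, as 6.30% of all genes did.

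The members that rose at passage 13 overlapped between passages when all 4 treatments were set together. *Tfcp2l1* was higher by 0.57 ± 0.08 on the log2 scale (adjusted p = 0.000229), *Nanog* by 0.47 ± 0.11 (0.00667) and *Pou5f1* by 0.29 ± 0.06 (0.00208), all by edgeR with the treatment in the model. These 3 and the 2 lower members were called in all 12 fits that left out 1 library. With no term for the treatment *Pou5f1*, *Nanog* and *Tfcp2l1* lost their calls (adjusted p = 0.348, 0.437 and 0.227), and with the most abundant transcript alone *Nanog*, *Tfcp2l1* and *Tbx3* did (0.712, 0.302 and 0.685). *Klf2* (0.66 ± 0.23, adjusted p = 0.0398) and *Dppa5a* (0.23 ± 0.08, adjusted p = 0.0444) were closer to the threshold, and both were lost with DESeq2 (0.0749 and 0.0929), with no filter on low counts (0.0613 and 0.0685) and without the 2-DG libraries (0.194 and 0.0779). *Klf2* was called in 5 of those 12 fits and was at 0.32 (adjusted p = 0.289) without the passage 13 library of 2-DG. *Klf2* also lost its call without the passage 13 library of 3X glucose, the passage 15 libraries of 0X glucose, 1X glucose and 2-DG, and the passage 16 libraries of 3X glucose and 2-DG, at adjusted p from 0.0516 to 0.0972 in those fits. *Dppa5a* was called in 4 of the 12, those without a 0X library of passage 13 or 15, the 2-DG library of passage 15 or the 3X library of passage 16. *Zfp42* (0.32 ± 0.12, adjusted p = 0.0533), *Prdm14* (1.01 ± 0.57, adjusted p = 0.170) and *Esrrb* (−0.11 ± 0.17, adjusted p = 0.629) were not called.

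Between passages 16 and 15, 4.20% of all genes differed (2.19% higher and 2.01% lower), and 3 members were higher at passage 16 and none lower. *Pou5f1* rose from 20.3 to 42.1 CPM at passage 15 to 31.3 to 51.3 CPM at passage 16, ranges that overlap because 2-DG is highest in both, and within each treatment passage 16 was higher. Its log2 fold change was 0.54 ± 0.07 (adjusted p = 0.00513, edgeR), and it was called in all 8 fits that left out 1 library, but neither with the most abundant transcript alone (adjusted p = 0.151) nor with no term for the treatment (0.612). With the most abundant transcript alone its own counts were the same and its log2 fold change was again 0.54. *Tbx3* (0.73 ± 0.17, adjusted p = 0.0419) and *Dppa5a* (0.41 ± 0.10, adjusted p = 0.0456) were less secure, and both were lost with no filter on low counts (0.0681 and 0.0815). *Tbx3* kept the call only without the passage 16 library of 2-DG, and *Dppa5a* only without the 2-DG library of either passage. Without any 1 of the 6 libraries of the other treatments, 1 member was called.

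**Figure D3:**
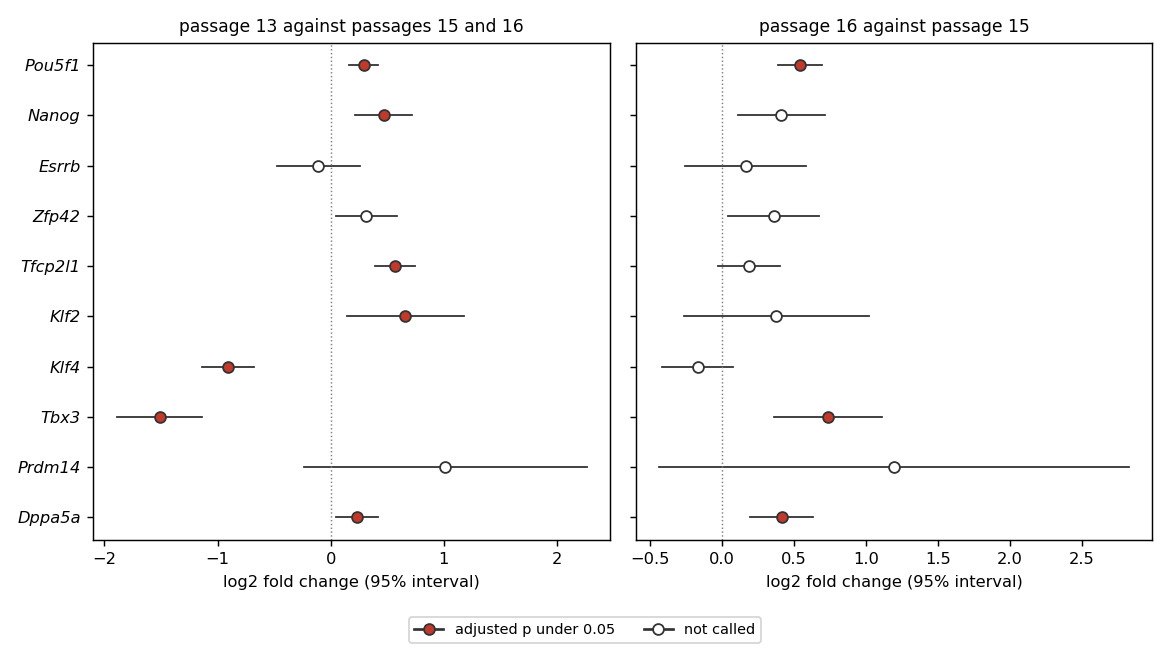
Log2 fold change (x axis) of each gene (y axis) between ES cell passages with its 95% interval, from the edgeR fit of passage and treatment, with filled circles where the adjusted p was under 0.05. *Tbx3* (−1.51) and *Klf4* (−0.91) lie left of 0 at passage 13, opposite to *Klf2*, *Tfcp2l1*, *Nanog*, *Pou5f1* and *Dppa5a*.

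The sum of squares of log2 CPM over the 12 libraries divides exactly between treatment, passage and the rest, because each passage held each treatment once. Passage took 89.5% for *Klf4* and 88.6% for *Tbx3*, and treatment took 3.39% and 4.91%. Treatment took the most for *Dppa5a* (78.9%), *Nanog* (77.4%) and *Tfcp2l1* (71.3%), and passage took 16.6%, 17.9% and 26.5% of theirs. *Pou5f1* was divided, with 56.5% for treatment and 39.9% for passage, and only 3.67% was left over. *Esrrb* had the largest remainder, 42.1%, beside 49.9% for treatment and 8.04% for passage. These shares describe the 12 libraries and were not tested.

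**Figure D4:**
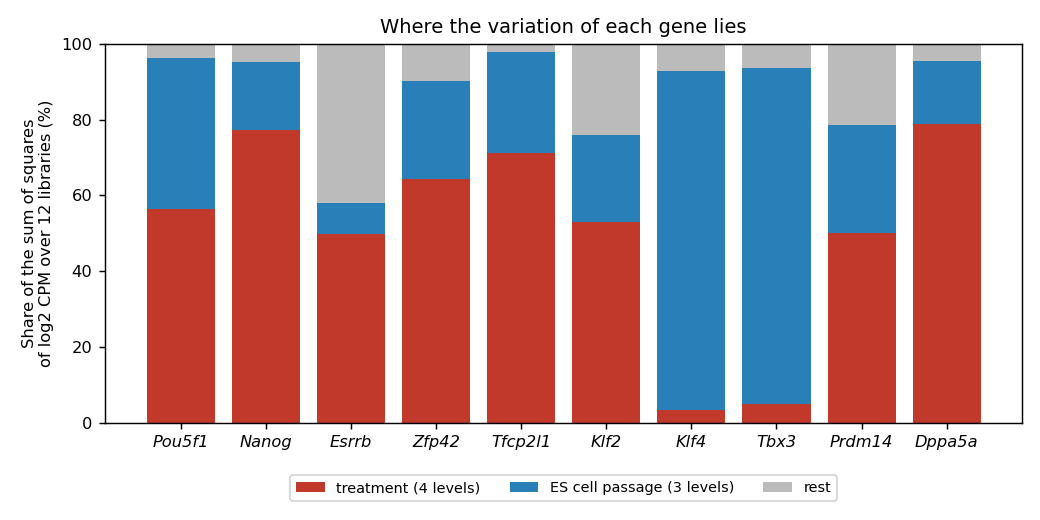
Share of the sum of squares of log2 CPM over 12 libraries (y axis, percent from 0 to 100) that lies between the 4 treatments, between the 3 passages and in the rest, for each gene (x axis). The bars of *Klf4* and *Tbx3* are mostly passage (89.5% and 88.6%), and those of *Dppa5a* and *Nanog* mostly treatment (78.9% and 77.4%).

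The profiles of the members over the 12 libraries fell into a few close pairs. Pearson's r of log2 CPM was 0.88 for *Nanog* with *Zfp42*, 0.86 for *Pou5f1* with *Tfcp2l1* and with *Nanog*, and 0.82 for *Tfcp2l1* with *Klf2*. *Klf4* and *Tbx3* were alike (0.81) and apart from *Tfcp2l1* (−0.49 and −0.27). *Prdm14* and *Dppa5a* formed the other close pair (0.78), and *Dppa5a* had an r of −0.05 with *Pou5f1*. In 2-DG *Pou5f1* was higher and *Dppa5a* lower than in 1X glucose at every passage, while both were higher at passage 16 than at passage 15. The libraries behind each r share treatments and passages, so r describes these 12 libraries and carries no p.

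**Figure D5:**
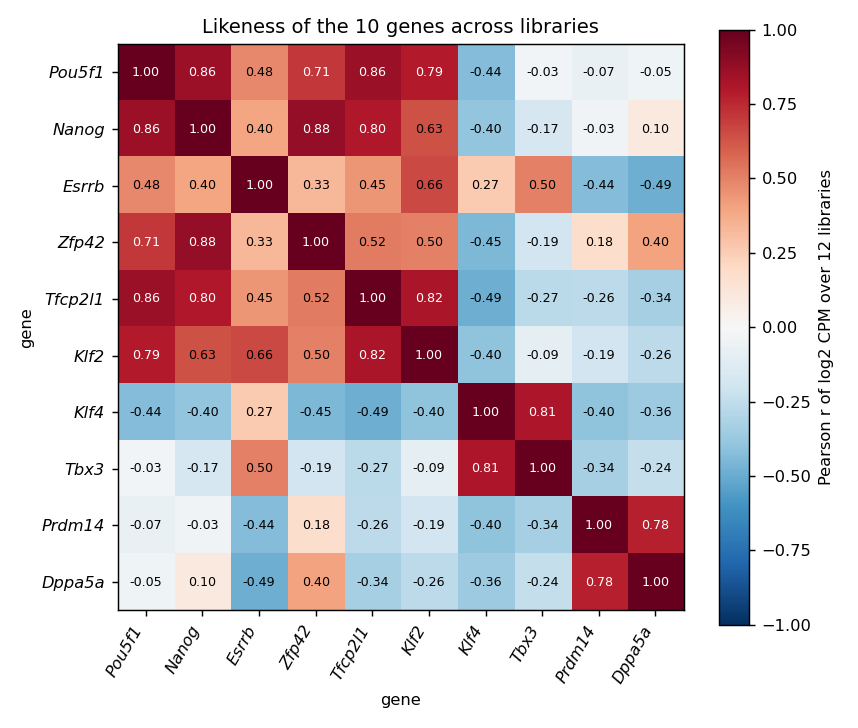
Pearson's r of log2 CPM over 12 libraries between each pair of the 10 genes (both axes), on a colour scale from −1 to 1. *Pou5f1*, *Nanog*, *Zfp42*, *Tfcp2l1* and *Klf2* are positively related to each other (0.50 to 0.88), as are *Klf4* with *Tbx3* (0.81) and *Prdm14* with *Dppa5a* (0.78).

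The tested genes with the profiles most like each member were, for *Pou5f1*, *Stxbp2* (r = 0.98), the simple-epithelium keratin *Krt18* (0.97) and the epithelial factor *Grhl2* (0.97). For *Nanog* they were *Apela* (0.95), which encodes a peptide ligand made by ES cells, *2310047K21Rik* (0.95) and *Arl6ip5* (0.95). *Tfcp2l1* was closest to *Myh7b* (0.99), the transporter gene *Abcc4* (0.98) and *Manba* (0.98), which encodes lysosomal beta-mannosidase. For *Klf4* they were *Yes1*, *Rasgrp3* and *Capn2* (0.97 to 0.98), and for *Tbx3* *Zfhx3*, *Parvb* and *Ncoa3* (0.98). *Zfp42* was closest to *Rnf207*, *Slc7a4* and *Rimkla* (0.93 to 0.95), *Klf2* to *Vstm2l*, *Sgip1* and *Epha10* (0.92 to 0.93), and *Esrrb* to *Tshz3*, *Cbr1* and *Nudt16* (0.89 to 0.92). The nearest to *Dppa5a* were *Fance*, *Exosc4* and *Gm39392* (0.92 to 0.95), and to *Prdm14* *Yipf1*, *Gm4779* and *Mrps16* (0.92 to 0.95).

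Other genes of the network were read from a list of 26 further naive and general pluripotency genes, of which 24 were tested. In 2-DG against 1X glucose, 1 of the 24 rose and 1 fell, beside 9.12% and 8.51% of all genes, and their median log2 fold change was −0.03. The riser was *Zfp57*, a zinc finger gene that keeps imprints methylated (35.6 ± 1.84 to 42.5 ± 2.89 CPM, SD, n = 3, log2 fold change 0.25, adjusted p = 0.0204). *Jam2*, an adhesion gene, fell from 5.33 ± 0.64 to 3.44 ± 0.13 CPM (−0.63, adjusted p = 0.00532). With the block 4 rose and 6 fell, beside 21.1% and 20.2% of all genes. *Dppa3* and *Tcl1* had at most 7 and 2 counts in any library and were not tested. At passage 13, 12 of the 24 were higher and 2 lower, beside 23.3% and 22.8% of all genes, with a median of 0.29 beside 0.015 for all genes. *Spp1* (1.84), *Sox2* (1.33) and the Nodal co-receptor gene *Tdgf1* (1.07) led the higher side. *Spp1* reached at most 0.379 CPM and was at 0 in at least 1 library each of 1X, 0X and 3X glucose. The size of its estimate thus depends on how zeros are handled. *Tdgf1* was also low, at 0.160 to 1.39 CPM.

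Of 6 genes of the LIF and STAT3 pathway, which sustains *Klf4* and *Tfcp2l1* in ES cells, the ligand gene *Lif* rose in 2-DG, from 3.01 ± 0.72 to 6.56 ± 0.92 CPM (log2 fold change 1.12, adjusted p = 0.00443, edgeR). The others (*Lifr*, *Il6st*, *Jak1*, *Stat3* and *Socs3*) were not called, and the median of the 6 was −0.05. At passage 13, 1 of the 6 was higher and 2 lower, where 23.3% of all genes were higher and 22.8% lower. The STAT3 target *Socs3* was higher by 0.82 and the receptor genes *Il6st* and *Lifr* were lower by a little (−0.25 and −0.22). Of 14 tested Klf genes other than *Klf2* and *Klf4*, 4 rose in 2-DG and none fell, beside 9.12% and 8.51% of all genes. With the block 5 rose, beside 21.1% of all genes. The 4 were *Klf10* (53.4 ± 2.27 to 100.4 ± 4.96 CPM, 0.91), *Klf3* (24.3 ± 2.10 to 41.9 ± 1.86 CPM, 0.79), *Klf6* (0.50) and *Klf7* (0.42), with a median of 0.33 over the 14. *Klf5*, which is on both of these lists with the network genes, was not among the called ones.

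Of 11 tested genes of the formative and primed epiblast, the states that follow the naive one, 2 rose and 2 fell in 2-DG. Among all genes, 9.12% rose and 8.51% fell, and the median of the 11 was 0.17. The POU factor gene *Pou3f1*, which is also a neural gene, rose from 5.31 ± 1.26 to 13.6 ± 5.16 CPM (1.35, adjusted p = 0.00784), and *Sall2* rose slightly (0.17). *Nodal*, the signal of the early epiblast and streak, fell from 1.33 ± 0.63 to 0.353 ± 0.145 CPM (−1.91, adjusted p = 0.0306), and the methyltransferase gene *Dnmt3a* fell by 0.39. With the block, 6 rose and 4 fell, beside 21.1% and 20.2% of all genes. In 0X and 3X against 1X glucose, no gene of these 4 lists was called except *Klf10*, which fell in 0X glucose to 28.2 ± 1.64 CPM (−0.92, adjusted p = 0.000706, edgeR). *Klf10* in 0X glucose and the genes in the next 3 sentences were named after their values were seen. Against 0X glucose, *Zfp57* (0.28) and the TGF-beta family ligand gene *Gdf3* (1.05) rose in 2-DG and *Jam2* fell (−0.69), and *Lif* rose (1.51). Of the Klf genes, *Klf10* (1.83), *Klf3* (0.76), *Klf6* (0.47) and *Klf11* (0.43) rose and *Klf15* fell (−0.74). Of the epiblast genes, *Pou3f1* rose (1.08) and *Nodal* (−2.15) and *Dnmt3a* (−0.45) fell. With the block, that comparison called 4 higher and 6 lower of the naive and general genes, 1 and 1 of the pathway genes, 6 and 1 of the Klf genes and 4 and 4 of the epiblast genes. Among all genes it called 21.5% in each direction.

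Markers of other cell types were read beside the members, since some of those types express them. All counts of markers called in 2-DG against 1X glucose stand beside 9.12% of all genes higher and 8.51% lower. With the block these shares were 21.1% and 20.2%, and several counts of these short lists are near them. None of the markers was called in 0X or 3X against 1X glucose, with the block or without it. Primordial germ cell markers, which matter for *Prdm14*, *Nanog* and *Pou5f1*, summed to 22.2 to 41.4 CPM in 1X glucose, 23.8 to 43.5 in 0X, 27.6 to 45.2 in 3X and 34.5 to 51.9 in 2-DG, most of it from *Kit*. Of the 6 tested markers, *Tfap2c* rose in 2-DG (1.25 ± 0.38 to 3.75 ± 0.91 CPM, 1.58, adjusted p = 0.00445) and none fell, and with the block 3 rose. The sums of this list overlapped between all 4 groups. *Dppa3* was at 0 in 7 of 12 libraries, *Rhox9* in 10, *Dazl* in 4, *Stk31* in 4 and *Nanos3* in 1. The part of germ cells in the values of the members was not tested.

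Endothelial markers, which matter for *Klf2*, summed to 4.44 to 14.1 CPM in 1X glucose, 4.39 to 20.6 in 0X, 4.61 to 12.9 in 3X and 2.96 to 3.13 in 2-DG. Of 7 tested, *Etv2* alone was called without the block and fell in 2-DG (−1.52). With the block, 5 fell (*Kdr*, *Cdh5*, *Etv2*, *Tal1* and *Flt1*) and *Cd34* rose (adjusted p = 0.0486), the genes called only there being named after their values were seen. The sum of this list was lowest in the group where *Klf2* was highest, and its part in the level of *Klf2* was not tested. Endoderm markers, which matter for *Tbx3* and *Klf4*, summed to 26.9 to 194.8 CPM in 1X glucose, 25.4 to 219.4 in 0X, 29.3 to 142.4 in 3X and 28.0 to 74.9 in 2-DG, ranges that overlap. In 2-DG against 1X glucose 1 of 7 rose and 1 fell, and with the block 1 rose and 3 fell. By passage, the sums were 25.4 to 29.3 CPM at passage 13, 74.9 to 219.4 at passage 15 and 35.0 to 115.4 at passage 16, with *Cer1* holding up to 6382 counts. At passage 13, 5 of 7 endoderm markers were lower and 1 higher, with *Cer1* (−4.50), *Sox17* (−2.49) and *Foxa2* (−2.15) among the lower ones. Of 7 endothelial markers 4 were lower there, among them *Cdh5* (−3.68) and *Kdr* (−2.37). *Cdh5* was at 0 in 4 of 12 libraries and had at most 46 counts. Among all genes, 22.8% were lower and 23.3% higher at passage 13. *Klf4* and *Tbx3* were thus lowest in the passage with the least endoderm marker RNA. *Tbx3* was higher at passage 16 than at passage 15, whereas the endoderm sums of those passages overlapped. Whether cell type shares set these levels was not tested.

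Streak and tail bud mesoderm markers summed to 626.4 to 1003 CPM in 1X glucose, 557.3 to 1015 in 0X, 684.8 to 1032 in 3X and 345.8 to 475.1 in 2-DG. Of 8, 3 fell and none rose in 2-DG: *Mixl1* (−3.89), *Wnt3a* (−2.72) and *T* (−1.57). With the block 6 fell and none rose. Neural markers summed to 45.4 to 78.8 CPM in 1X glucose, 43.0 to 64.8 in 0X, 45.2 to 77.0 in 3X and 86.6 to 157.7 in 2-DG. Of these 7, 4 rose in 2-DG, led by *Irx3* (1.90), *Sox1* (1.84) and *Neurog2* (1.69), and *Nkx6-1* fell (−1.43), with the same counts under the block. The median log2 fold change was −1.15 for the mesoderm list and 1.29 for the neural list, beside 0.40 for the 10 members. Mesoderm marker RNA was thus lower and neural marker RNA higher in the same group in which *Pou5f1*, *Nanog* and *Tfcp2l1* were highest, and the part of cell type shares in those levels was not tested.

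How the counts fell on transcripts bears on the smaller genes. All counts of *Pou5f1*, *Klf2*, *Klf4*, *Prdm14* and *Dppa5a* were on 1 transcript each. *Nanog* had 79.0% of its counts on 1 of 4 transcripts, *Tfcp2l1* 88.1% and *Esrrb* 77.5%. For *Zfp42* the top transcript held 53.0% and for *Tbx3* 68.4%. Every transcript of *Zfp42*, *Tbx3* and *Esrrb* was at 0 in at least 1 library. Values are sums over transcripts unless the most abundant transcript is named.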

How the data were processed

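The authors trimmed reads with Trim Galore, aligned them to mm10 with HISAT2, handled alignments with SAMtools and Picard, and assembled and counted transcripts with StringTie (versions are not given in the sources used here). The deposited values are estimated counts per RefSeq transcript, which were summed per gene symbol and rounded to whole numbers. The authors' 3 tables of comparisons hold log2 fold changes and adjusted p-values and were not used. filterByExpr kept 16966 of 38911 symbols, TMM factors were 0.977 to 1.03, and edgeR 4.0.16 (limma 3.58.1, R 4.3.3) fitted quasi-likelihood models to all 12 libraries, with Benjamini-Hochberg adjustment over all genes, a threshold of 0.05 and 95% intervals. The labels share passages between groups. Libraries of 1 passage deviated together (r = 0.0963 to 0.623 over 18 pairs, against −0.440 to 0.191 over 36 pairs of different passages), so the fit with the passage as a block stands beside the treatment results it changes. Alternatives were DESeq2 1.42.0, no filter, the most abundant transcript alone, fewer groups and leaving out each library. For the treatments, all of these were fitted without the block. All 10 members are named, as are at most the 4 largest called genes of each list in 2-DG against 1X glucose and at passage 13, and 3 neighbours by Pearson's r for each member. The members and lists were chosen with earlier results of these data known. The labels do not say that libraries came from separate cultures, and p-values measure the spread between them. Some listed genes are not reported here.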

Additional observations from a re-analysis of the deposited data

Results flagged for a closer look

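In 2 of 30 checks for a library far from the others of its passage, the 2-DG library was the distant one. *Tfcp2l1* measured 4.74 CPM in the passage 15 library of 2-DG, while the nearest of the other 3 libraries of that passage measured 2.16 CPM, a gap of 0.968 of the whole range, above Dixon's 95% critical value for 4 samples. *Klf2* measured 3.69 CPM in the passage 13 library of 2-DG, while the nearest of the other 3 measured 1.31 CPM (0.850 of the range). Chance alone flags about 1 in 20 such groups. The libraries of a passage differ in treatment, so a distant library here is also a treated one.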

How the results depend on the processing

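Counts of members called were 2, 0, 0, 3, 7 and 3 and of all genes 2990, 2, 0, 3207, 7828 and 713, for 2-DG against 1X, 0X against 1X, 3X against 1X, 2-DG against 0X, passage 13 against the others and passage 16 against 15. With the replicate block, which uses the pairing by passage, 2-DG against 1X called 7 members and 7001 genes and 2-DG against 0X called 6 members and 7305 genes, while no member was called in 0X or 3X against 1X. DESeq2 called 12 genes in 0X and 2 in 3X against 1X. Fitting only the groups compared gave 1925 genes for 2-DG and 0 for 0X against 1X. With no filter, passage 16 against 15 called 1 member and 326 genes. Without the treatment term, passage 13 called 2 members and 4230 genes and passage 16 against 15 called 0 members and 9 genes. Without the 2-DG libraries, passage 16 against 15 called 1332 genes.

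The most abundant transcript alone, which discards the counts of the other transcripts, called 1 member and 649 genes in 2-DG against 1X, 2 genes in 3X against 1X, 0 members and 766 genes in 2-DG against 0X, 2 members and 2560 genes at passage 13, and 0 members and 8 genes in passage 16 against 15. It turned the log2 fold change of *Esrrb* (−0.58 in 2-DG against 1X, −0.70 against 0X and −0.41 in passage 16 against 15), of *Zfp42* (0.59 in 0X against 1X and −1.07 in passage 16 against 15), of *Tbx3* (−0.69 and −0.18 in the same pair of comparisons) and of *Tfcp2l1* (−0.15 in passage 16 against 15). Members with all counts on 1 transcript kept the same counts in that setting, where only the counts of other genes differed. With no filter, *Dppa5a* in 3X against 1X was at −0.0022.

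Leaving out 1 library gave 1 to 2 members and 1723 to 2385 genes in 2-DG against 1X, 0 to 0 and 1 to 3 in 0X against 1X, 0 to 0 and 0 to 0 in 3X against 1X, 1 to 4 and 2054 to 2633 in 2-DG against 0X, 5 to 7 and 6014 to 7848 at passage 13, and 1 to 3 and 74 to 823 in passage 16 against 15. The lowest gene counts came without the passage 15 library of 1X glucose (1723 and 74) or of 0X glucose (2054). Directions that turned belonged to members that were not called. In 2-DG against 1X these were *Zfp42* (−0.10 to 0.17), *Klf4* (−0.42 to 0.16) and *Tbx3* (−0.18 to 0.94). In 0X against 1X they were *Esrrb* (−0.15 to 0.13), *Tfcp2l1* (−0.33 to 0.12), *Klf2* (−0.33 to 0.17), *Klf4* (−0.40 to 0.19) and *Tbx3* (−0.32 to 0.88). In 3X against 1X they were *Pou5f1* (−0.17 to 0.21), *Esrrb* (−0.066 to 0.25), *Tfcp2l1* (−0.085 to 0.43), *Klf2* (−0.14 to 0.27), *Tbx3* (−0.44 to 0.84), *Prdm14* (−1.05 to 0.052) and *Dppa5a* (−0.14 to 0.19). In 2-DG against 0X they were *Klf4* (−0.24 to 0.17) and *Tbx3* (−0.30 to 0.57), and at passage 13 *Esrrb* (−0.37 to 0.046). The cause of these changes was not tested. Depth limits *Prdm14*, with at most 20 counts in a library.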

Other observations

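Values of later epiblast and germ layer genes by passage stand beside 23.3% of all genes called higher and 22.8% lower at passage 13, a share that several of these short lists are near. At passage 13 against passages 15 and 16, 4 of 11 tested formative and primed epiblast genes fell and 2 rose by edgeR. On the log2 scale, *Foxd3* (−2.39), *Nodal* (−0.90) and *Zic2* (−0.54) were among the lower ones and *Sox3* (1.69) among the higher. *Foxd3* was low, at 0.0580 to 1.61 CPM. Of 7 neural markers 4 rose, among them *Sox1* (0.99), *Irx3* (0.78) and *Hes5* (0.62), and *Olig2*, at 0 in 3 of 12 libraries, fell (−4.11). Of 8 streak and tail bud mesoderm markers, 4 rose, led by *Cdx2* (1.08) and *Wnt3a* (0.97). Another 3 fell, led by *Mesp1* (−1.39) and *Eomes* (−1.34), the latter with only 3 to 32 counts per library. The germ cell markers *Kit* (0.78) and *Prdm1* (−0.91) went opposite ways.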
